A study of Mus musculus with 10 samples.

Results

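The genes described here are the Wnt ligands, their agonists, receptors, antagonists and effectors in the mandibular prominences (MNPs) of mouse embryos, the paired ventral swellings from which the lower jaw and much of the tongue arise. They were taken by a rule on the gene symbol: every Wnt, Fzd, Sfrp, Dkk and Rspo gene of the files, together with Lrp5, Lrp6, Wif1, Notum, Kremen1, Axin1, Axin2, Lef1, Tcf7, Tcf7l1, Tcf7l2 and Ctnnb1. This gave 53 of 33641 gene symbols, made up of 19 Wnt ligands, 4 R-spondins, 12 receptors, 11 antagonists and 7 effectors. 50 of them passed the filter on low counts and were tested among 17477 genes, and Wnt8a, Wnt8b and Sfrp4 were not.

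RNA was sequenced from MNPs at embryonic day 10.5 in 3 genotypes: wild-type embryos (WT), embryos that lack Hand2 in the neural crest (genotype Hand2f/f;Wnt1-Cre, Hand2 cKO) and embryos that lack Gli2 and Gli3 there (Gli2/3 cKO, genotype Gli2f/f;Gli3f/f;Wnt1-Cre). The Hand2 protein is a helix-loop-helix transcription factor of distal arch mesenchyme, and Gli2 and Gli3 are zinc-finger factors through which Hedgehog signals reach their target genes. Mice were kept on a CD1 background and embryos of both sexes were used. Wnt1-Cre, which both mutants carry and WT embryos do not, expresses the recombinase from regulatory sequence of Wnt1, itself one of the genes described. Floxed alleles are removed in neural crest cells and their mesenchymal descendants but not in epithelium, mesoderm, vessels or blood, and Cre and the deletions cannot be told apart in a comparison of either mutant with WT. For later stages, pregnant dams of Hand2 mutants drank water with L-phenylephrine, isoproterenol and ascorbic acid, and the sources used here give neither whether this applied at embryonic day 10.5 nor whether libraries were made from single embryos or pools. The labels list 10 samples, of which 6 libraries entered the analysis, namely replicates 3 and 4 of WT, replicates 1 to 3 of Hand2 cKO and replicate 3 of Gli2/3 cKO. The other 4 were not analysed here, so the Gli2/3 cKO genotype had no replicate.

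Wnt proteins are secreted, lipid-modified signals that bind Frizzled receptors (Fzd) and, in the canonical branch, the coreceptors Lrp5 and Lrp6. Binding halts the destruction complex built on Axin, so that beta-catenin (Ctnnb1) accumulates and turns on target genes with Tcf and Lef factors in the nucleus. R-spondins raise the amount of receptor at the cell surface, and Sfrp proteins and Wif1 bind Wnts outside the cell. Dkk proteins other than the divergent Dkk3 act with Kremen1 on Lrp5 and Lrp6, and Notum removes the lipid that Wnts need. Dkk3 is classed here with the antagonists by its symbol. In the facial prominences the epithelium and the neural crest mesenchyme exchange Wnt signals, and Axin2, Notum, Dkk1 and Lef1 are known as genes that respond to canonical signalling in many tissues.

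Depth ran from 21420034 to 53326524 counts per library, and levels are given in CPM (counts-per-million of the scaled library size). The deleted genes were read first: Hand2 stood at 13.4 to 25.5 CPM in its cKO where WT had 175 and 209 CPM, and in the Gli2/3 cKO library Gli2 stood at 58.3 CPM and Gli3 at 80.2 CPM, where the lower WT library had 105 and 145 CPM. Those 2 levels include cells outside the crest and any transcript left from the floxed alleles. Hand2 cKO 2 stood apart: its log2 counts fell by 0.23 per doubling of transcript length, where the slopes of the other libraries ran from -0.065 to 0.11. Epithelial markers summed to 424 to 492 CPM and markers of neural crest mesenchyme to 2513 to 3123 CPM over all libraries, each of the 15 and 13 genes with counts in every library. Erythroid markers ranged from 2566 CPM in WT 3 to 9808 CPM in WT 4. Summed marker levels of Hand2 cKO and WT did not overlap for neural progenitors (145 to 151 against 97.9 to 120 CPM), pharyngeal endoderm (40.0 to 42.4 against 30.6 to 35.9 CPM) and endothelium (264 to 271 against 275 to 316 CPM), and macrophage markers were lowest in Gli2/3 cKO (16.7 CPM, with 22.4 to 33.4 CPM elsewhere). Single genes weighed on these sums: Nes had 129 to 135 CPM in Hand2 cKO and 87.5 and 108 CPM in WT. Pax9, of the endoderm list, had 10.5 to 16.2 CPM against 4.33 and 10.8 CPM. Of 9 tested neural progenitor markers 5 fold changes were positive and 4 negative in Hand2 cKO against WT. For 6 tested endoderm markers these counts were 5 and 1. The part of these cell types in the results was not tested. In bulk tissue, fewer cells of a type and less RNA per cell cannot be told apart.

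Within WT, every class was led by a few genes. Levels between genes were compared per transcript length, as TPM (transcripts-per-million, mean ± SD, n = 2). Among ligands Wnt5a, which acts mainly outside the canonical branch, had 35.1 ± 4.73 TPM. The epithelial ligand Wnt6 had 28.6 ± 4.88 TPM and Wnt5b 16.4 ± 1.38 TPM. Wnt5a lay above Wnt6 in both libraries, with 38.4 against 32.1 TPM in WT 3 and 31.7 against 25.2 TPM in WT 4. Wnt5a, Wnt6 and Wnt5b made up 28.3%, 23.0% and 13.4% of all ligand TPM. Rspo2 alone took 87.0% of the R-spondin level, at 31.3 ± 3.15 TPM, with Rspo3 at 1.99 ± 0.057 TPM and Rspo1 at 1.92 ± 1.03 TPM. Fzd2 was the leading receptor at 108 ± 18.4 TPM, followed by Lrp5 at 56.7 ± 5.59 TPM and Fzd7 at 48.6 ± 6.55 TPM. The antagonists were headed by 2 Sfrp genes, Sfrp2 at 51.8 ± 13.6 TPM and Sfrp1 at 44.7 ± 6.43 TPM. Sfrp2 was the higher in both libraries, clearly in WT 3 (61.4 against 49.2 TPM) and narrowly in WT 4 (42.2 against 40.1 TPM). Kremen1 came next at 32.1 ± 2.30 TPM. Of the effectors Ctnnb1 had 945 ± 104 TPM, 75.5% of its class, ahead of Tcf7l1 at 71.8 ± 0.893 TPM and Axin2, the inducible scaffold of the destruction complex, at 65.2 ± 19.1 TPM. At the low end, Wnt8b had 0 counts in every library, which allows up to 3 counts per library, or 0.0567 to 0.133 CPM. Wnt1 had 0 counts in both WT libraries, and Wnt8a, Sfrp4 and Sfrp5 averaged at most 0.0665 TPM in WT.

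**Figure D1:**
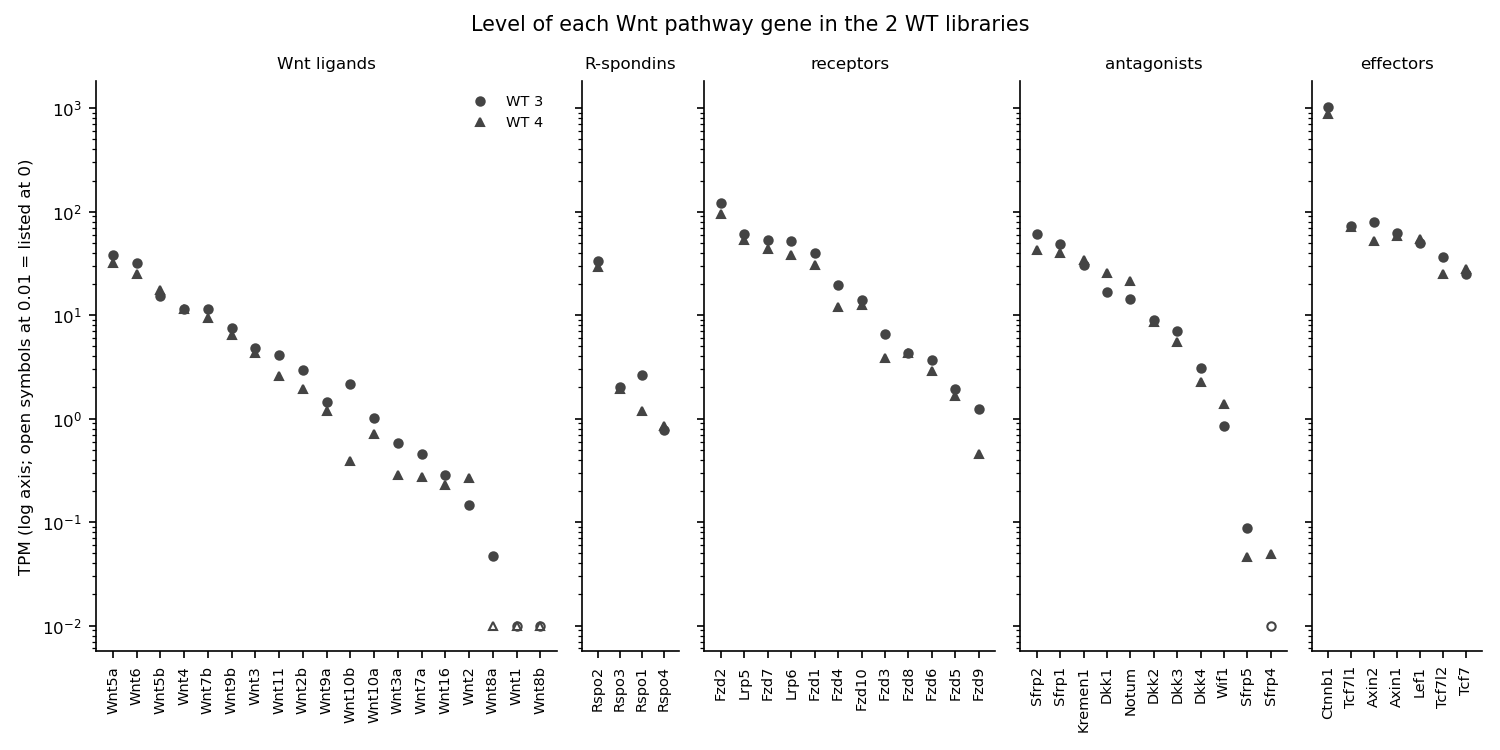
Level in TPM (log axis) of each of the 53 genes in WT 3 (circles) and WT 4 (triangles), ordered by mean level within each class, with open symbols at the foot of the axis for genes listed at 0. Wnt5a and Wnt6, Rspo2, Fzd2, Sfrp2 and Sfrp1, and Ctnnb1 stand at the top of their classes.

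Hand2 cKO was set against WT to ask which of these genes depend on Hand2 in the crest. The antagonists parted in opposite directions: Notum, Dkk1, Dkk2, Dkk3 and Kremen1 were lower in all 3 Hand2 cKO libraries than in either WT library, and Sfrp2 and Sfrp1 were higher. Wif1, at a low level, was lower as well (0.738 to 0.871 against 0.916 and 1.37 CPM), with an interval that spans 0 (-1.34 to 0.29). The agonist Rspo3, the ligand Wnt11 and the effector Tcf7 were also higher in every Hand2 cKO library, and Rspo2, Rspo4 and Wnt2b lower. None of the 50 tested members was called by the edgeR quasi-likelihood test (adjusted p under 0.05 and a fold above 1.5), where 0.0114% of all genes tested were called. At an unadjusted p under 0.05 there were 4 members higher and 7 lower, against 2.44% and 4.02% of all genes. DESeq2 called 2 members, Notum lower and Sfrp2 higher, against 1.08% of its tested genes. Hand2 itself, with a log2 fold change of -3.40, was called by DESeq2 (adjusted p = 3.19e-22) and not by edgeR (adjusted p = 0.058). A count of 0 by edgeR therefore does not show that members were unchanged. Groups did not overlap for 7 members on the higher side (15.3% of all genes) and for 16 on the lower side (15.7% of all genes). The median log2 fold change over members was 0.027, against -0.00012 over all genes tested, and it was -0.013 with upper-quartile scaling. In the text that follows log2 fold changes are from edgeR, with ± SE, and the 95% intervals are those of the same fit.

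**Figure D2:**
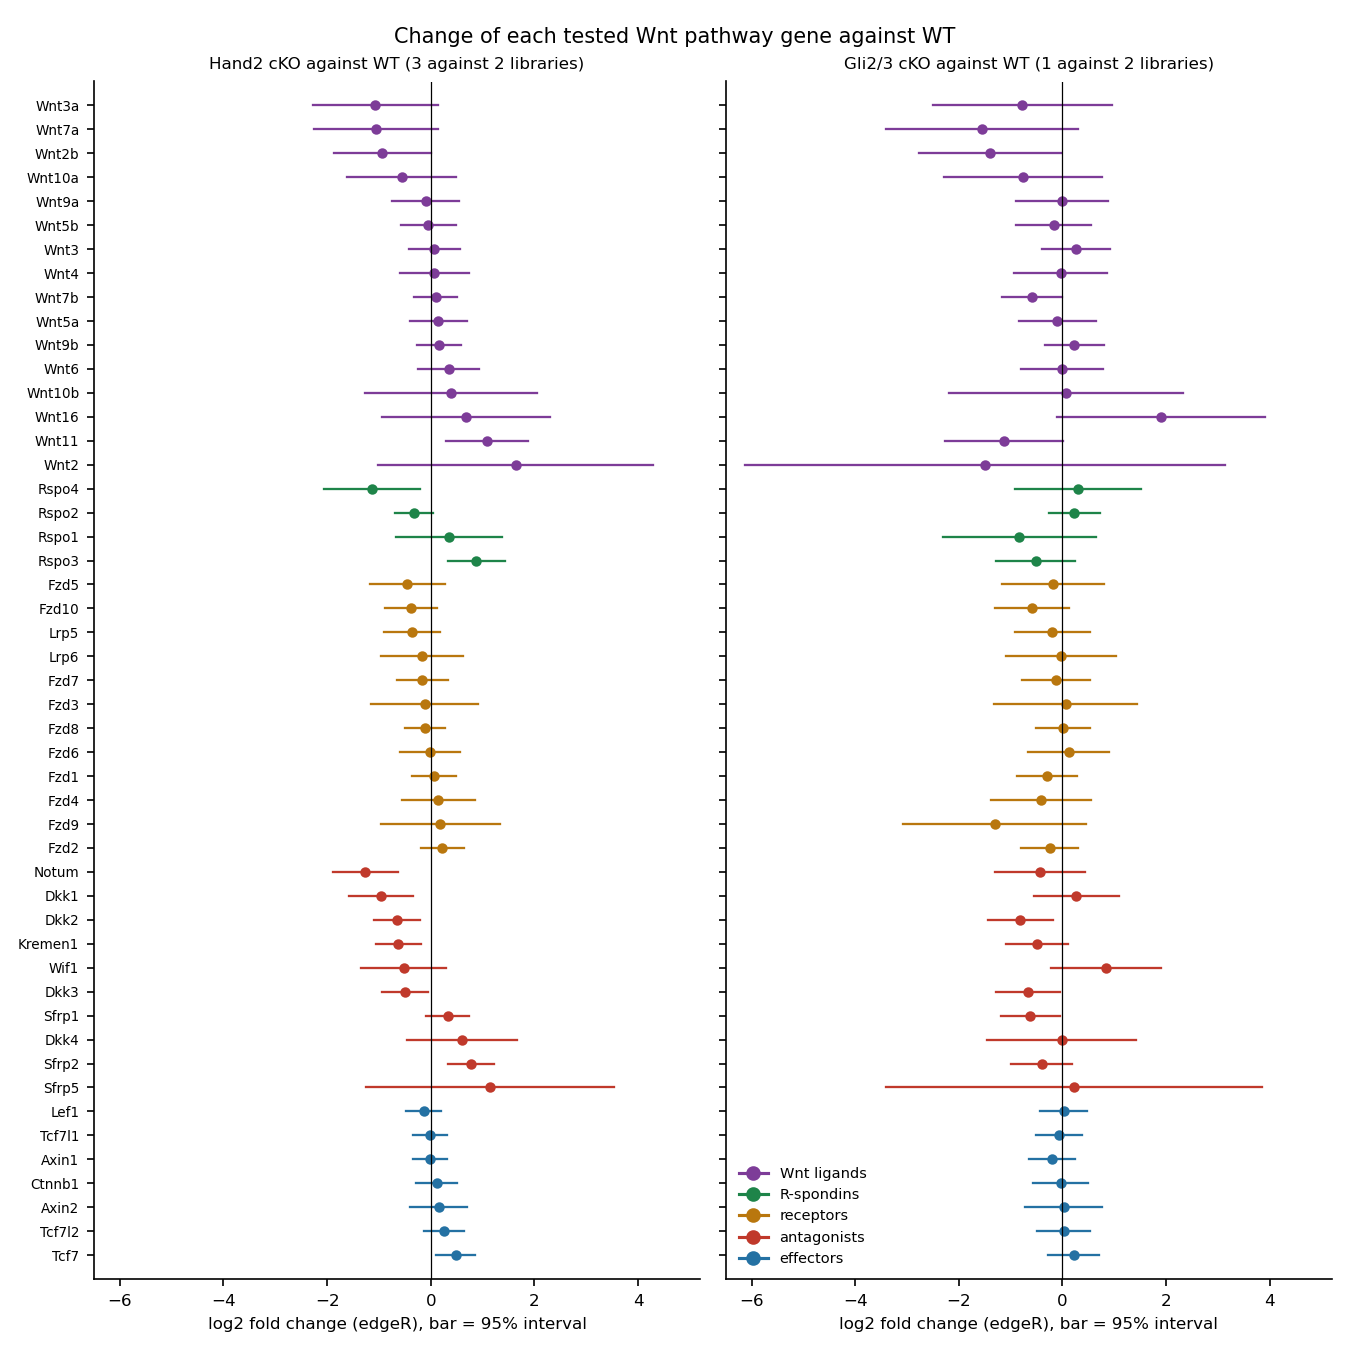
Log2 fold change against WT (edgeR, points) with its 95% interval (bars) for 49 tested members, Wnt1 left out, coloured by class; the left panel compares 3 Hand2 cKO libraries and the right panel the lone Gli2/3 cKO library with 2 WT libraries. In the left panel the intervals of Notum, Dkk1, Dkk2, Kremen1, Dkk3, Rspo4 and, narrowly, Wnt2b lie below 0. Those of Sfrp2, Rspo3, Wnt11 and Tcf7 lie above it, while no adjusted p passed the threshold in either panel.

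Notum, the carboxylesterase that inactivates Wnts by taking off their lipid, had 10.5 and 15.1 CPM in WT 3 and WT 4 and 5.31, 6.31 and 4.26 CPM in Hand2 cKO 1 to 3. The groups did not overlap, and the WT mean was 2.41-fold the Hand2 cKO mean. It had a log2 fold change of -1.27 ± 0.26 (95% interval -1.89 to -0.64, edgeR unadjusted p = 0.00251, adjusted p = 0.416). DESeq2 gave an adjusted p of 0.00815, and its adjusted p ran from 0.000226 to 1 over the alternatives, in which 1 setting or library was changed, or the test was DESeq2 with 1 library left out. The gene lies on chromosome 11, 120653788 to 120661175, minus strand (mm10). Its annotated antisense neighbours Notumos and Myadml2os overlap it, and reads of overlapping genes on opposite strands are told apart only by stranded counting, on which the sources used here say nothing.

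Dkk1, a secreted ligand of Lrp5 and Lrp6 that blocks canonical signalling, had 19.1 and 31.8 CPM in the WT libraries against 12.2, 14.8 and 12.04 CPM in Hand2 cKO. The 2 WT libraries differed more from each other than the 3 mutant libraries did among themselves. The log2 fold change was -0.96 ± 0.25 (95% interval -1.57 to -0.35, edgeR adjusted p = 0.649), and it was -0.55 without WT 4 and -1.29 without WT 3. Dkk2, a related protein that can also act as a weak agonist, had 15.8 and 16.2 CPM in WT against 11.5, 8.92 and 10.1 CPM, with a log2 fold change of -0.65 ± 0.18 (-1.09 to -0.21, edgeR adjusted p = 0.700). Dkk3, a divergent member of the family, stood at 11.05 and 9.37 CPM in WT and at 7.34, 6.84 and 7.51 CPM in the mutant (-0.50 ± 0.18, edgeR adjusted p = 0.723). Kremen1, the transmembrane partner of Dkk proteins, had 68.6 and 82.2 CPM in WT against 51.7, 41.0 and 53.9 CPM in Hand2 cKO (-0.63 ± 0.18, edgeR adjusted p = 0.723). For these 4 genes, too, every mutant library lay below both WT libraries. Dkk4, the last of the family, overlapped between the groups, at 1.503 and 1.89 CPM in WT against 1.46 to 3.696 CPM in Hand2 cKO.

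Sfrp2, a secreted Frizzled-related protein that binds Wnts, had 52.5 and 40.4 CPM in WT against 82.8, 84.7 and 70.3 CPM in Hand2 cKO, 1.71-fold the WT mean. No mutant library overlapped WT. Its log2 fold change was 0.77 ± 0.18 (95% interval 0.33 to 1.21, edgeR unadjusted p = 0.00522, adjusted p = 0.546). By DESeq2 the adjusted p was 0.0377, with 0.00585 to 1 over the alternatives. Its paralog Sfrp1 had 101 and 89.4 CPM in WT against 132, 103 and 123 CPM in Hand2 cKO, apart by a small margin, with a log2 fold change of 0.32 ± 0.17 (-0.09 to 0.74, edgeR adjusted p = 0.723). Sfrp5 had at most 11 counts in a library, and Sfrp4 was not tested. Summed over the Sfrp genes the level was 142 ± 16.9 CPM in WT (SD, n = 2) and 199 ± 14.2 CPM in Hand2 cKO (SD, n = 3), a ratio of 1.402 that stayed between 1.29 and 1.42 under the other scalings. Summed over the Dkk genes it was 53.3 ± 7.87 and 33.0 ± 1.07 CPM, with WT 1.61-fold higher and 1.63-fold to 1.81-fold higher under the other scalings.

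Both DESeq2 calls depended on single libraries. In fits added after the data were seen, DESeq2 called 0 members when WT 4, Hand2 cKO 1 or Hand2 cKO 3 was left out (adjusted p of Notum 1, 0.246 and 0.123, of Sfrp2 1, 0.783 and 0.0931). Without WT 3 DESeq2 called Dkk1 alone (adjusted p = 0.0431, with 0.00432 to 1 over its alternatives). Without Hand2 cKO 2, whose counts trended with length, DESeq2 called Dkk1 (adjusted p = 0.00432), Notum (0.000226) and Sfrp2 (0.00585), and the edgeR log2 fold changes there were -1.07, -1.42 and 0.70.

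**Figure D3:**
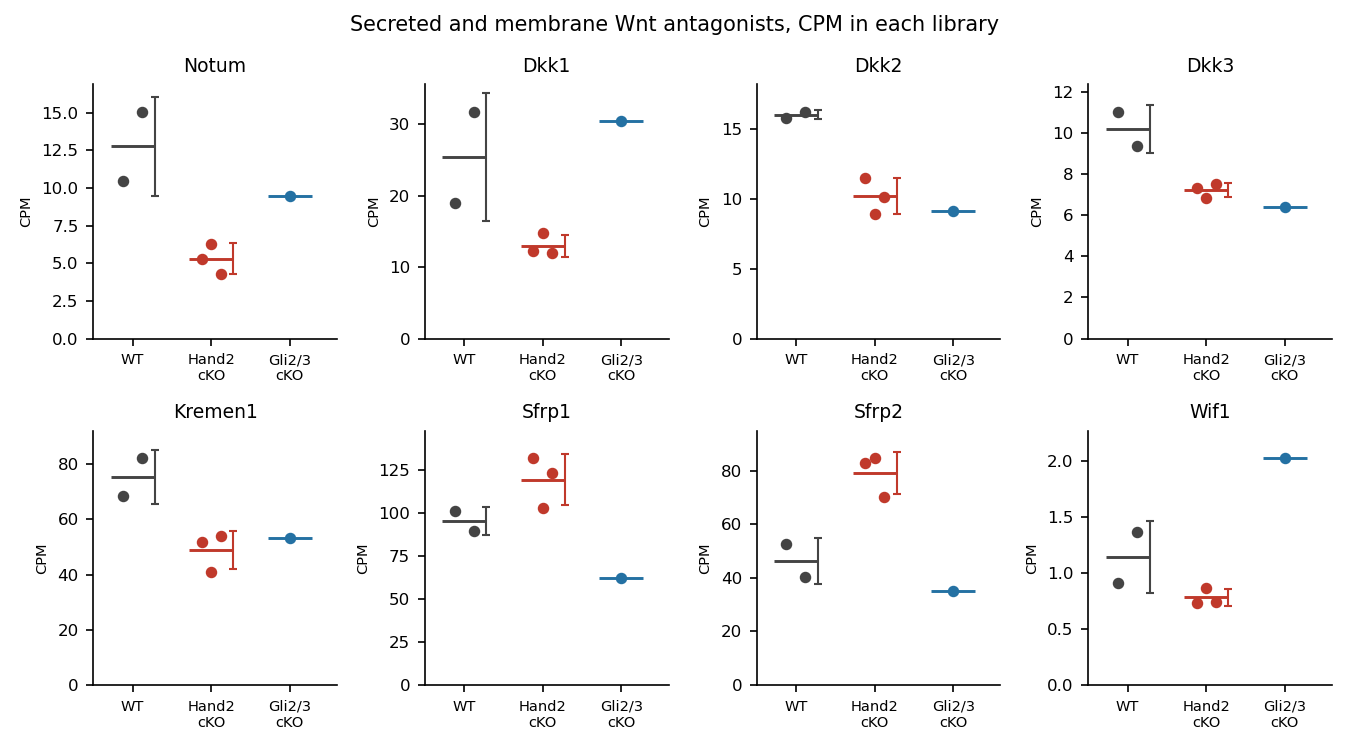
CPM (linear axes from 0) of 8 antagonists in each library, with points for libraries, horizontal lines for the mean of WT (n = 2) and Hand2 cKO (n = 3) and bars for the SD; the Gli2/3 cKO library has no replicate. Notum, Dkk1, Dkk2, Dkk3, Kremen1 and Wif1 are lower and Sfrp1 and Sfrp2 higher in every Hand2 cKO library than in both WT libraries. In Gli2/3 cKO Dkk1 is at 30.4 CPM and Sfrp1 at 62.1 CPM.

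Sequence upstream of the start is shown for 3 of the genes that lay apart in Hand2 cKO and for which RefSeq promoters were at hand: Sfrp2 and Wnt11 from the higher side and Dkk2 from the lower. Each run holds the 250 bases before the start (RefSeq, GRCm38.p6, plus strand, 5′ to 3′), and capitals mark the letters CCACCC, the core of the motif bound by Gli factors, or CTTTGAA or CTTTGAT, the motif of Tcf and Lef factors, on either strand.
Sfrp2, chr3:83766071-83766320: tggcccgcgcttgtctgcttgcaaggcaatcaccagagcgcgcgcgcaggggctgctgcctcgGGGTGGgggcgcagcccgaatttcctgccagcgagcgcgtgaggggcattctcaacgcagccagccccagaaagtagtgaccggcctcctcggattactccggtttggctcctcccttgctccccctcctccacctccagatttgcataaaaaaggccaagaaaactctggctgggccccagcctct
Wnt11, chr7:98834862-98835111: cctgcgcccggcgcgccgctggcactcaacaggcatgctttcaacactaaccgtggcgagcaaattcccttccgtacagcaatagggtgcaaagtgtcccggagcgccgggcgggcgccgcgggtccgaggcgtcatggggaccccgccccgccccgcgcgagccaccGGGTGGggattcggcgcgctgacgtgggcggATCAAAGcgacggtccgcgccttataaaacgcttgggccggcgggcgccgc
Dkk2, chr3:132085042-132085291: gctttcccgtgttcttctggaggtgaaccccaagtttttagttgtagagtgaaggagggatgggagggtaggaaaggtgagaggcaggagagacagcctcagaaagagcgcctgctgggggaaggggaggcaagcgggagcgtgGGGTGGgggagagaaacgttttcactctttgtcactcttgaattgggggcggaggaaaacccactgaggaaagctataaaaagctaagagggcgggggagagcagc
All 3 runs hold the Gli core once, and Wnt11 holds the Tcf and Lef motif once as well. None of them holds CANNTG, the E-box that basic helix-loop-helix factors such as Hand2 bind, although a promoter at another listed start of Wnt11 does. Over the 300 bases around each listed start (250 before and 50 after), CCACCC was found for 18 of the 34 members with a promoter, or 52.9%, against 34.0% of all 27025 genes. CANNTG was found for 22 members, or 64.7%, against 75.0% of all genes. Of the genes apart in Hand2 cKO, those 22 included Tcf7, Wnt2b, Rspo4, Wif1, Fzd5, Fzd10, Lef1, Wnt3a and Wnt7a beside Wnt11. Sfrp2, Dkk1, Dkk2 and Tcf7l2, which also had a promoter, were without it, so the printed runs do not stand for all. CATCTG, an E-box contained in CANNTG, was found for 3 members, or 8.82%, against 19.2%. The Tcf and Lef motif was found for Dkk1, Wnt11 and Wnt5b, 8.82% against 9.88%, and the longer Gli motif GACCACCCA, which contains the core, for 0 members against 0.289%. A match is a run of letters and no evidence of binding, and the search covered only these windows. The divergent Gli motif that the paper describes in the MNP, which holds at least CCTCC, was not searched for.

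The R-spondins did not share a direction. Rspo3, an agonist far below Rspo2 in level, had 2.94 and 2.87 CPM in WT against 5.83, 5.52 and 4.70 CPM in Hand2 cKO, 1.84-fold the WT mean. The log2 fold change was 0.88 ± 0.23 (95% interval 0.33 to 1.43, edgeR unadjusted p = 0.00774, adjusted p = 0.638). Rspo2, the leading member, had 52.7 and 49.5 CPM in WT against 45.7, 36.3 and 40.9 CPM, with a log2 fold change of -0.32 ± 0.15 whose interval (-0.69 to 0.05) spans 0. Rspo4 was low throughout, at 0.857 and 1.02 CPM in WT against 0.53, 0.37 and 0.361 CPM (-1.14 ± 0.38, edgeR adjusted p = 0.723). Rspo3 was thus higher and Rspo2 and Rspo4 lower in every mutant library than in both WT libraries, while Rspo1 overlapped between the groups, at 1.11 and 2.12 CPM in WT and 1.397 to 2.56 CPM in the mutant. As a share of the R-spondin TPM, Rspo3 took 5.2% and 5.89% in WT and 10.4% to 12.6% in Hand2 cKO.

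Of the 17 tested ligands, Wnt11 and Wnt2b were the ones with an unadjusted p under 0.05. Wnt11, which acts largely through the planar polarity branch, had 3.08 and 2.08 CPM in WT against 4.94, 7.10 and 4.48 CPM in Hand2 cKO, 2.14-fold the WT mean. Its log2 fold change was 1.08 ± 0.32 (95% interval 0.29 to 1.87, edgeR unadjusted p = 0.015, adjusted p = 0.723), and 0.84 without Hand2 cKO 2, which had the highest level. Wnt2b, a canonical ligand, had 4.56 and 3.10 CPM in WT and 2.70, 1.27 and 2.05 CPM in the mutant (-0.93 ± 0.38, edgeR adjusted p = 0.723), with the lowest value again in Hand2 cKO 2. Wnt3a and Wnt7a were likewise lower in all 3 mutant libraries, but neither exceeded 1 CPM in any library. The abundant ligands overlapped between the groups: Wnt5a had 62.8 and 71.7 CPM in WT against 54.9 to 84.5 CPM in Hand2 cKO (0.15 ± 0.23), Wnt6 had 24.4 and 28.6 CPM against 27.9 to 43.9 CPM (0.34 ± 0.24), Wnt5b 16.1 and 19.5 CPM against 14.9 to 21.1 CPM, and Wnt4 22.4 and 24.4 CPM against 17.8 to 32.9 CPM. Hand2 cKO 2 had the lowest level of Wnt5a and the highest of Wnt6, Wnt5b and Wnt4. Wnt3, Wnt7b, Wnt9a, Wnt9b, Wnt10a, Wnt10b, Wnt16 and Wnt2 had intervals that spanned 0, from -1.01 to 4.29 for Wnt2, which had at most 63 counts in a library, to -0.31 to 0.51 for Wnt7b.

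**Figure D4:**
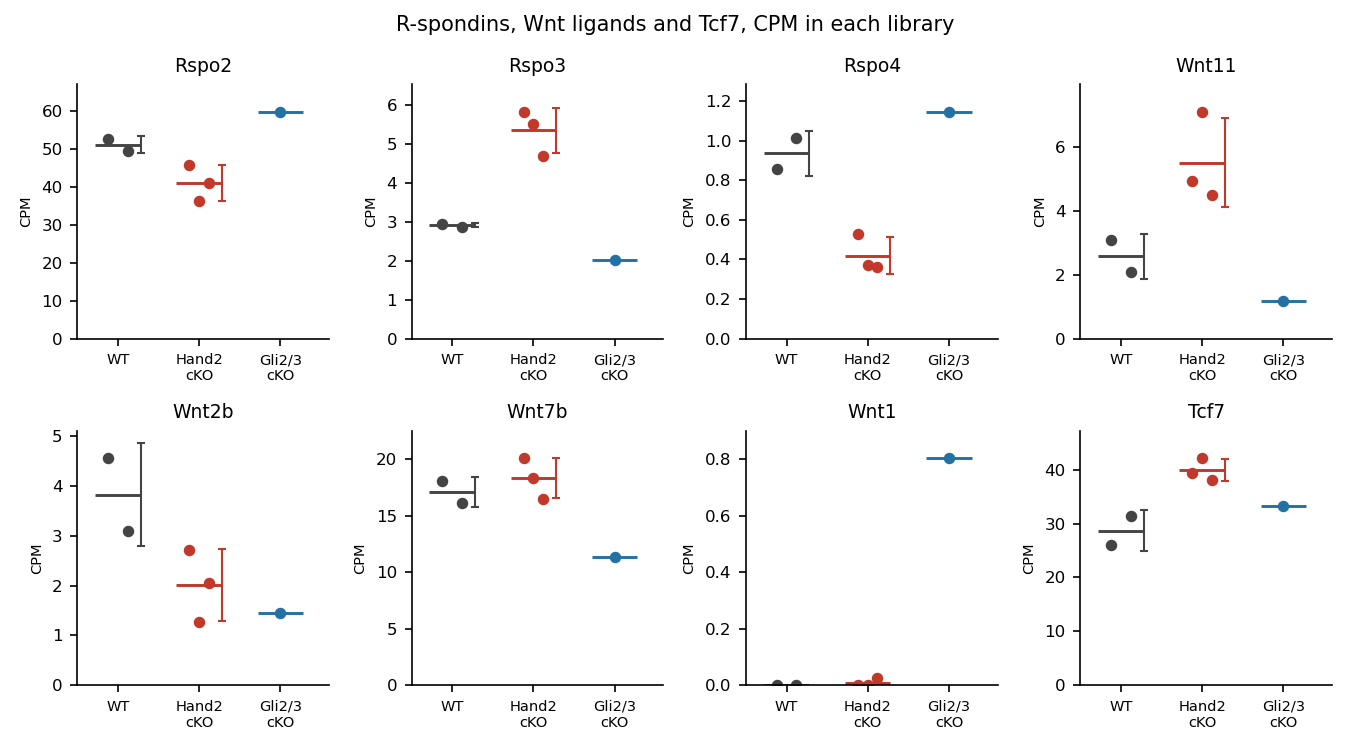
CPM (linear axes from 0) of 3 R-spondins, 4 Wnt ligands and Tcf7 in each library, with points for libraries, lines for group means and bars for the SD (n = 2 for WT, n = 3 for Hand2 cKO), left out for Wnt1, which has libraries at 0. Rspo3 and Wnt11 are highest in the 3 Hand2 cKO libraries and lowest in Gli2/3 cKO, with 2.03 and 1.19 CPM, and Wnt1 reaches 0.804 CPM there.

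For the 12 receptors no unadjusted p under 0.05 was found, and their fold changes ran from -0.45 (Fzd5) to 0.22 (Fzd2) on the log2 scale. Fzd2 had 178 and 209 CPM in WT against 210 to 251 CPM in Hand2 cKO (0.22 ± 0.17) and the groups were narrowly apart. Lrp5 had 137 and 150 CPM against 84.1 to 132 CPM (-0.36 ± 0.22) and its homolog Lrp6 155 and 199 CPM against 95.8 to 192 CPM (-0.17 ± 0.32), with Hand2 cKO 2 the lowest library for both and an overlap for Lrp6 alone. Fzd8, Fzd5 and Fzd10 were lower in every mutant library than in both WT libraries, by a log2 fold change of -0.11, -0.45 and -0.38. The remaining receptors, Fzd1, Fzd3, Fzd4, Fzd6, Fzd7 and Fzd9, overlapped between the groups.

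Among the effectors Tcf7, a T-cell factor that is itself induced by canonical signalling in several tissues, had 25.9 and 31.4 CPM in WT against 39.4, 42.2 and 38.2 CPM in Hand2 cKO. The groups were apart, with a log2 fold change of 0.48 ± 0.15 (95% interval 0.11 to 0.85, edgeR unadjusted p = 0.0197, adjusted p = 0.723). Axin2, the target most often used as a readout of canonical signalling, had 123 and 91.2 CPM in WT against 136, 93.6 and 127 CPM in Hand2 cKO (0.15 ± 0.23, interval -0.40 to 0.71). Lef1 had 77.4 and 73.3 CPM against 71.9, 64.2 and 69.5 CPM (-0.14 ± 0.14), and Ctnnb1 had 1244 and 1080 CPM against 1327, 1187 and 1257 CPM (0.11 ± 0.16). Axin1 and Tcf7l1 had intervals from -0.34 to 0.32 and -0.35 to 0.32. Tcf7l2 was narrowly higher in all 3 mutant libraries and Lef1 narrowly lower, and the interval of each spanned 0 (-0.12 to 0.65 for Tcf7l2). Of the genes known to respond to canonical signalling, Notum and Dkk1 were thus lower and Tcf7 higher in Hand2 cKO at an unadjusted p under 0.05, and Axin2 and Lef1 had intervals that span 0. Among 10 further targets outside the rule 5 fold changes were positive and 5 negative, with a median of 0.022, and 1 gene, Myc, was higher at that threshold (0.58 ± 0.24, edgeR adjusted p = 0.723) and 0 were lower.

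Summed by class in CPM, Hand2 cKO and WT overlapped for receptors, antagonists and effectors and were apart for ligands and R-spondins. The ligands of WT summed to 187 ± 11.7 CPM and those of Hand2 cKO to 206 ± 7.17 CPM, and this difference of 0.14 on the log2 scale turned to -0.08 in TPM. Antagonists summed to 284 ± 4.14 and 287 ± 17.5 CPM, a log2 ratio of 0.012 that was -0.12 in TPM, so the higher Sfrp and lower Dkk, Notum and Kremen1 levels came to nearly the same total. R-spondins stood at 56.5 ± 2.91 and 48.8 ± 4.93 CPM (log2 ratio -0.21, with -0.38 in TPM), receptors at 829 ± 104 and 798 ± 115 CPM (-0.055, with 0.067 once the length trend was removed) and effectors at 1603 ± 142 and 1720 ± 96.1 CPM (0.10, with -0.014 on raw library totals). Changing the scaling also moved all genes: the median log2 ratio of Hand2 cKO to WT over all genes was -0.12 on raw library totals and -0.22 in TPM.

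**Figure D5:**
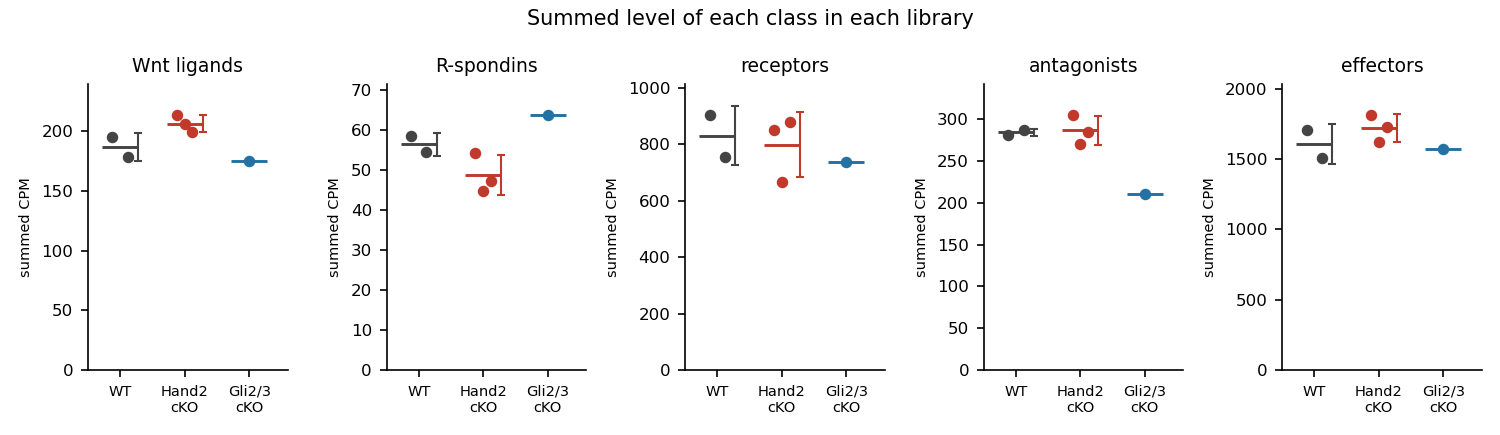
Summed CPM (linear axes from 0) of each class in each library, with points for libraries, lines for group means and bars for the SD (n = 2 for WT, n = 3 for Hand2 cKO). The antagonist sum of the Gli2/3 cKO library, 210 CPM, lies below all 5 other libraries (270 to 305 CPM). Its ligand sum, 175 CPM, is also the lowest (178 to 213 CPM elsewhere). Its R-spondin sum, 63.8 CPM, is the highest (44.8 to 58.6 CPM elsewhere). The WT and Hand2 cKO points overlap for receptors, antagonists and effectors. On the TPM scale Hand2 cKO 2 lies lowest of all libraries for the antagonists.

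The Gli2/3 cKO library was compared with WT to ask which genes depend on Gli2 and Gli3 in the crest. With 1 library its spread was taken from the other groups, so each test rests on the assumption that it varies as they do. Levels of Sfrp1, Dkk2, Dkk3, Wnt7b, Wnt2b and Wnt11 were lower there than in both WT libraries, and Wnt1 was the member with the largest relative excess. This position was common: 26 tested members lay below the WT range, Kremen1, Notum, Lrp5 and several Fzd genes among them. A further 9 lay above it and 15 within it. A range of 2 libraries is narrow, and the share of all genes outside it was not counted. EdgeR called 0 of 50 members (0.0114% of all genes called) and DESeq2 also called 0 (0.661% of its tested genes). At an unadjusted p under 0.05 edgeR had 1 member higher and 5 lower, against 1.63% and 2.96% of all genes. The higher one was Wnt1, which was tested only because of its counts in this library. The median over members was -0.11, against 0.0012 over all genes.

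Sfrp1 had 62.1 CPM in Gli2/3 cKO and 101 and 89.4 CPM in WT, which was 1.53-fold higher in WT. Its log2 fold change was -0.62 ± 0.23 (95% interval -1.19 to -0.05, edgeR adjusted p = 1), and DESeq2 called it only without Hand2 cKO 2 (-0.63, adjusted p = 0.00615, with up to 1 over the alternatives). Sfrp2 had 35.2 CPM, also below both WT libraries (-0.40 ± 0.24). The Sfrp sum was 97.5 CPM, with WT 1.45-fold higher and 1.3996-fold to 1.48-fold higher under the other scalings. The antagonist sum was 210 CPM against 284 CPM in WT (log2 ratio -0.44, from -0.46 to -0.38 under the other scalings). For the other classes the log2 ratio in CPM was -0.097 (ligands), -0.17 (receptors), -0.032 (effectors) and 0.18 (R-spondins). Dkk2 had 9.11 CPM (-0.81 ± 0.26, edgeR adjusted p = 0.928) and Dkk3 6.43 CPM (-0.67 ± 0.25, edgeR adjusted p = 1), close to the Hand2 cKO levels, which share the same WT libraries as reference. Dkk1 had 30.4 CPM and lay within the WT range. Wnt7b, a ligand made mainly by epithelium, had 11.4 CPM against 18.1 and 16.1 CPM in WT (-0.59 ± 0.24, edgeR adjusted p = 1). The summed epithelial markers were 424 CPM in this library and 472 CPM in each WT library, and their part in the Wnt7b value was not tested. Wnt2b stood at 1.45 CPM, and WT was 2.63-fold higher (-1.40 ± 0.57, edgeR adjusted p = 1). Wnt11 had 1.19 CPM, or 31 counts, and WT was 2.17-fold higher (-1.13 ± 0.46, 95% interval -2.26 to 0.0024, edgeR unadjusted p = 0.05004).

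Wnt1 (chromosome 15, 98789857 to 98793837, plus strand), a ligand of the dorsal midbrain and hindbrain whose regulatory sequence drives Cre in both mutants, had 21 counts in the Gli2/3 cKO library, 1 count in Hand2 cKO 3 and 0 counts in the other 4 libraries. At 0.804 CPM it was at least 8.41-fold higher than WT, taking 3 counts per WT library as the floor. Wnt1 passed the filter on low counts only through the Gli2/3 cKO library, in which it is high. Its edgeR p (unadjusted 0.00592, adjusted 0.719) therefore gives no separate support for the excess. Counts of neural progenitor markers also differed in that library: Sox1 had 0.842 CPM against at most 0.265 CPM in the others, Hes5 0.765 CPM against at most 0.106 CPM and Otx2 1.68 CPM against 0.398 to 1.32 CPM. The whole list of 11 such markers, dominated by Nes, summed to 99.1 CPM there, 97.9 to 120 CPM in WT against 145 to 151 CPM in Hand2 cKO, with counts for 6 of them in every library, and Olig2 was at 0 there as in all but 1 of the others. Of 9 tested markers of that list, 8 fold changes against WT were positive and 1 negative, with a median log2 fold change of 1.58. Nes, which dominates the sum, had 81.5 CPM there against 87.5 and 108 CPM in WT. Markers near 0 elsewhere can, like Wnt1, pass the filter through this library alone. The part of neural cells in the Wnt1 counts was not tested. Wnt10b, which lies 11.7 kb from Wnt1, had 1.42 CPM in Gli2/3 cKO, within the WT range of 0.442 to 2.16 CPM.

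The 2 mutants were compared directly to see where loss of Gli2 and Gli3 and loss of Hand2 differ. Sfrp2, Sfrp1, Rspo3 and Wnt11, all at their highest in Hand2 cKO, were lower in the Gli2/3 cKO library than in all 5 others. EdgeR called 0 members (0.0343% of all genes), with 6 higher and 5 lower in Gli2/3 cKO at an unadjusted p under 0.05, against 2.86% and 2.63% of all genes. DESeq2 called 4 members lower in Gli2/3 cKO, against 0.731% of its tested genes in either direction: Wnt11, Sfrp2, Sfrp1 and Rspo3.

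Wnt11 had the largest of these differences, with 4.48 to 7.10 CPM in Hand2 cKO against a level of 1.19 CPM in Gli2/3 cKO, a ratio of 4.64. The log2 fold change was -2.21 ± 0.47 (95% interval -3.35 to -1.07, edgeR adjusted p = 0.510), with a DESeq2 adjusted p of 0.00526 and 0.00526 to 0.961 over the alternatives. Sfrp2 was 2.25-fold higher in Hand2 cKO (-1.17 ± 0.24, interval -1.76 to -0.58, edgeR adjusted p = 0.498, DESeq2 0.0053, alternatives 5.31e-05 to 0.961). Sfrp1 was 1.92-fold higher (-0.94 ± 0.23, edgeR adjusted p = 0.626, DESeq2 0.0270, alternatives 1.91e-08 to 0.961), and edgeR called it once the length trend was removed (-1.04, adjusted p = 0.0465). Rspo3 was 2.64-fold higher (-1.40 ± 0.31, edgeR adjusted p = 0.549, DESeq2 0.0433, alternatives 0.0433 to 0.989). With 1 library left out, DESeq2 called Wnt11 alone without WT 3, Wnt11 and Sfrp2 without WT 4 or Hand2 cKO 3, and 0 members without Hand2 cKO 1, where the adjusted p of Wnt11 was 0.0795. Without Hand2 cKO 2 it called Wnt11, Sfrp1, Sfrp2 and Dkk1.

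In the other direction Dkk1 had 30.4 CPM in Gli2/3 cKO against 12.04 to 14.8 CPM in Hand2 cKO, 2.33-fold higher (1.22 ± 0.30, edgeR unadjusted p = 0.00651, adjusted p = 0.635). Notum had 9.49 CPM against 4.26 to 6.31 CPM (0.84 ± 0.32, edgeR adjusted p = 0.875). Rspo2 had 59.7 CPM against 36.3 to 45.7 CPM (0.54 ± 0.19, edgeR adjusted p = 0.830). All 3 genes were thus above the Hand2 cKO range, and Dkk1 and Rspo2 were within or above the WT range. Rspo4 (1.15 against at most 0.53 CPM) and Wif1 (2.03 against at most 0.871 CPM), a secreted Wnt-binding inhibitor, were above that range at low levels, with 30 and 53 counts in the Gli2/3 cKO library. Wnt7b was the fifth member on the lower side, at 11.4 CPM against 16.5 to 20.1 CPM (-0.69 ± 0.23, edgeR adjusted p = 0.814). Wnt1 completed the higher side, with the counts and the limit of its test given above.

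Some members were split over several transcripts, and for Axin2 and Lef1 the split moved mainly in Hand2 cKO 2. A processed transcript of Axin2 of 2045 bases took 47.1% of the estimated counts of the gene there and 0.909% to 5.93% in the other libraries. A Lef1 transcript of 2298 bases took 46.5% there and 2.52% to 9.20% elsewhere, while the longer form of 3398 bases took 12.7% there and 47.0% to 62.3% elsewhere. The shorter Tcf7 transcript, of 1742 bases, took 28.7% and 29.2% of the counts in WT, 15.2%, 4.48% and 23.9% in Hand2 cKO and 24.3% in Gli2/3 cKO, so the Hand2 cKO libraries were below WT in this share, Hand2 cKO 2 the furthest. These shares rest on the authors' assignment of reads to transcripts, and no test was made of them.

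Of 67 other genes of the pathway outside the rule, 66 were tested. EdgeR called 0 of them in each comparison. In Hand2 cKO against WT, unadjusted p under 0.05 was found for 3 on the higher side and 5 on the lower, against 2.44% and 4.02% of all genes, with a median of -0.051, and DESeq2 called Tle2 lower and Prickle1 higher, against 1.08% of its tested genes. Tle2, a Groucho corepressor that Tcf factors recruit, had 32.5 and 38.4 CPM in WT against 14.1, 11.9 and 14.9 CPM in Hand2 cKO (-1.38 ± 0.17, edgeR adjusted p = 0.121, DESeq2 2.16e-07, alternatives 1.54e-10 to 0.953), and 22.4 CPM in Gli2/3 cKO. Prickle1, a cytoplasmic planar polarity protein, had 24.6 and 21.3 CPM in WT against 38.4, 35.3 and 38.2 CPM in Hand2 cKO (0.70 ± 0.15, edgeR adjusted p = 0.460, DESeq2 0.0158, alternatives 0.000842 to 1). Both were apart in all libraries. Of the 11 planar polarity genes, 1 reached that threshold on the higher side (Prickle1) and 3 on the lower, against the same shares of all genes: Daam2, a formin (-0.89 ± 0.26), Prickle2 (-0.81 ± 0.29) and Prickle3 (-0.52 ± 0.18), none of them called. In Gli2/3 cKO against WT the same threshold gave 0 on the higher side and 3 on the lower, against 1.63% and 2.96% of all genes, with a median of -0.17, led by Shisa2, an inhibitor of Fzd maturation, at 22.6 CPM against 35.3 and 40.3 CPM (-0.74 ± 0.19, edgeR adjusted p = 0.790). Draxin, a secreted inhibitor, was at 1.798 CPM against 4.13 and 3.85 CPM (-1.15 ± 0.41) and Tle2 had a log2 fold change of -0.66 ± 0.24. Tle4, a further Groucho corepressor, had 43.4 CPM against 73.4 and 55.8 CPM (-0.58 ± 0.24). Between the mutants 1 gene (Tle2, 0.71 ± 0.22) was higher and 4 lower in Gli2/3 cKO at that threshold, against 2.86% and 2.63% of all genes, with a median of -0.088, and DESeq2 called Shisa2 lower (-1.02 ± 0.19, adjusted p = 0.00309, edgeR 0.421, alternatives 9.53e-06 to 0.961). Prickle1 differed by -0.71 ± 0.19 (edgeR adjusted p = 0.701). Frzb, a Wnt-binding relative of the Sfrp genes, had 93.3 CPM in Gli2/3 cKO and 130 to 145 CPM in Hand2 cKO (-0.57 ± 0.20, edgeR adjusted p = 0.832).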

How the data were processed

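RNA of E10.5 MNPs was sequenced (the labels name a NovaSeq and the methods a HiSeq2500). The authors mapped paired-end reads to mm10 and estimated transcript abundance in Strand NGS (version not given in the sources used), and deposited 1 table per library with the estimated count of each transcript, unscaled and unpooled. The tables held 105129 transcripts and 0 rows without a symbol. Estimated counts were summed by gene symbol and rounded, which the test on whole counts requires. Depth was 21420034 to 53326524 counts, and floors cover counting error alone.

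Genes that passed filterByExpr (17477) were tested in 1 fit over all 6 libraries with edgeR's quasi-likelihood test (version 4.0.16, R 4.3.3, TMM scaling, Benjamini-Hochberg adjustment over all genes, residual df 3). As in the study, calls needed an adjusted p under 0.05 and a change of more than 1.5-fold. The Gli2/3 cKO library borrowed the spread of the other groups. Nothing in the labels says that replicates were separate embryos or litters, so p-values measure the spread between these libraries. DESeq2 1.42.0, other scalings and filters, removal of the length trend, protein-coding genes alone, only the groups compared, and each library left out in turn were the alternatives, 19 in all. TPM used the transcript lengths of GENCODE M21 (mm10), and transcripts without a length held at most 0.729% of counts.

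The members and gene lists were chosen with earlier results of these data known. Named with full values were Wnt1, members called by edgeR or DESeq2, members with an unadjusted edgeR p under 0.05, the 3 most abundant of each class, and other pathway genes called or among the 4 with the smallest p in a comparison. Other members named, Prickle2 and Myc were chosen after their values were seen. Promoters were RefSeq sequences (GRCm38.p6), matched by symbol for 34 of 53 members.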

Additional observations from a re-analysis of the deposited data

Results flagged for a closer look

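For 4 genes the 2 mutants differed from each other by DESeq2's test of the difference and not by edgeR's, with the Gli2/3 cKO genotype held by 1 library: the log2 fold change of Gli2/3 cKO against Hand2 cKO (edgeR) was -2.21 for Wnt11, -1.40 for Rspo3, -1.17 for Sfrp2 and -0.94 for Sfrp1. Each was above WT in all 3 Hand2 cKO libraries and below both WT libraries in the Gli2/3 cKO library. The 2 comparisons with WT share their WT libraries. Among the calls only that of Wnt11 was made without WT 3, and none was made without Hand2 cKO 1.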

How the results depend on the processing

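The edgeR count of called members stayed at 0 in all 3 comparisons under every edgeR alternative but 1: with the length trend removed, 1 member (Sfrp1) was called between the mutants. DESeq2 called 2 members in Hand2 cKO against WT and 4 in Gli2/3 cKO against Hand2 cKO. In DESeq2 fits without 1 library, chosen after seeing the data, the count ran from 0 to 3 in Hand2 cKO against WT (1 without WT 3, 3 without Hand2 cKO 2, 2 without Gli2/3 cKO 3), from 0 to 1 in Gli2/3 cKO against WT (1 without Hand2 cKO 2) and from 0 to 4 between the mutants (1 without WT 3, 2 without WT 4 or Hand2 cKO 3, 4 without Hand2 cKO 2). The cause was not tested. For members with an unadjusted edgeR p under 0.05 in a comparison, 475 values kept their side of the threshold and 23 passed it, and none changed sign. Other members did change sign over the alternatives. Axin2 ran from -0.047 to 0.38 in Hand2 cKO against WT, and Dkk1 from -0.075 to 0.68 in Gli2/3 cKO against WT. Summed class levels of Hand2 cKO over WT (log2) moved by more than the replicate spread 6 times: ligands to 0.024 on raw library totals and -0.081 in TPM, R-spondins to -0.38 in TPM, antagonists to -0.11 on raw totals and -0.12 in TPM, and effectors to -0.014 on raw totals. No paired analysis was possible because the groups compared share at most 1 replicate number among the libraries analysed. Depth limits the low genes: Wnt1, Rspo4 and Wif1 had at most 21, 44 and 53 counts in a library.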
